A study of Mus musculus with 6 samples.

Results

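Keratins, vimentin and lamin A are intermediate filament proteins, and the 9 genes described here are Krt7, Krt8, Krt10, Krt17, Krt18, Krt19, Krt42, Vim and Lmna. They are 9 of the 18518 gene symbols in the deposited expression table, found by symbol, and 7 of them are keratins, of 41 keratin symbols in the table. They were proposed with their BACH1-KO and WT values in view, so the difference between the genotypes is given for them as a description, with no test. The samples were E14Tg2A cells, an established mouse embryonic stem cell line, with 3 WT and 3 BACH1-KO libraries. Both genotypes had been cultured for 2 days in DMEM with 10% FBS, NEAA, β-mercaptoethanol and mLIF at 200 Units/ml, the last being murine leukemia inhibitory factor, the cytokine that supports self-renewal of these cells. In the BACH1-KO cells Bach1, which encodes a heme-binding transcription repressor, was targeted with sgRNAs in LentiCRISPR V2 that were transfected transiently, followed by puromycin and the sorting of single-cell clones. The sample titles carry number endings, some of them found in both genotypes, and the knockout titles open alike, but the labels do not explain these numbers. How many clones the knockout libraries represent, and whether libraries of a genotype came from separate cultures, is therefore not known, so a p-value reflects no more than how far these libraries differ among themselves, possibly for technical reasons. The series asks how BACH1 acts on pluripotency and differentiation.

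Keratins polymerise only as heterodimers of an acidic type I and a basic type II chain, and the pair formed by Krt8 and Krt18 is the first to be made in the mouse embryo and is typical of simple epithelia such as trophectoderm. Vimentin forms filaments by itself and is the usual intermediate filament of mesenchymal cells, fibroblasts and many cultured cells. Lamins A and C, both made from Lmna, belong to the nuclear lamina; they are scarce in pluripotent cells and increase with differentiation, while the B-type lamins are present in nearly all cells.

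Levels are in FPKM (fragments scaled by transcript length and by the mapped fragments of the library), a share of the library per unit length, so levels of different genes can be set side by side. Of all FPKM in a library, the 9 genes accounted for 0.0458% to 0.0468% (WT) or 0.0129% to 0.0139% (BACH1-KO). Absolute depth is unknown. The commonest ratio of FPKM values under 0.1 put the depth, relative to the first WT column, at 1.10 and 1.06 in the other WT columns, and at 1.17, 1.18 and 1.01 in those of BACH1-KO. Bach1 was at 7.97, 8.39 and 8.47 FPKM in WT and at 10.5, 10.4 and 10.4 FPKM in BACH1-KO, and a transcript level does not show whether the coding sequence was edited. The stem cell markers Pou5f1, Sox2 and Nanog were above 200 FPKM in every library. A test of all genes used limma on log2(FPKM + 1), with a gene called at an adjusted p under 0.05 and tested when its mean over the 6 libraries was at least 1 FPKM. It called 77% of 12187 tested genes, 37.3% higher and 39.7% lower in BACH1-KO. "Rose" and "fell" are used below only for genes this test called. All 9 members passed the filter, Krt10 through its WT level, since its BACH1-KO mean was 0.967 FPKM. Other genes with a mean under 1 FPKM in 1 genotype likewise passed the filter only through the other genotype. For these only 1 direction could be called. They include Nes and Lama1, through WT, and Dsc2 and Rhox9, through BACH1-KO.

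The largest differences were those of the type I keratins Krt17 (8.82 times) and Krt42 (14.0 times), with smaller ones for Krt8, Krt18, Krt19, Vim and Lmna, and all of these 7 genes were lower in each BACH1-KO library than in any WT library. Across all tested genes, 40.9% had every BACH1-KO library below every WT library, and 5.98% did so with a mean that was at least halved, as was the case for 6 of the 9 members. Because the members were chosen on this contrast, nothing is read from these counts. Krt7 differed the other way and Krt10 overlapped between the groups. In bulk libraries, fewer cells that express a gene and less RNA per cell cannot be told apart.

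**Figure D1:**
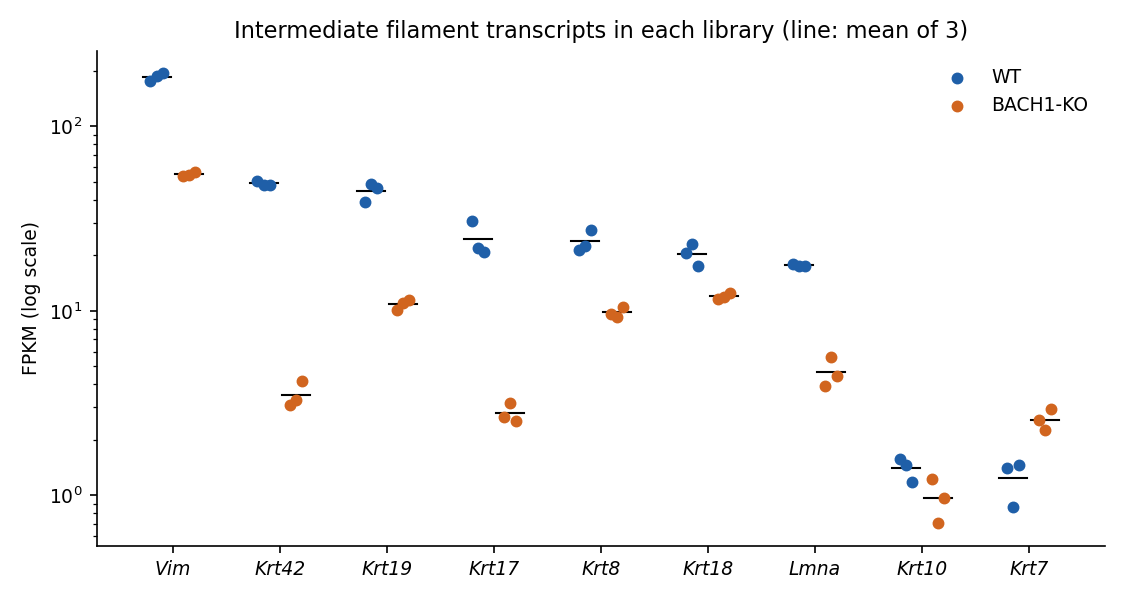
FPKM (log axis) of the 9 genes in each library, ordered by their WT mean, with WT in blue, BACH1-KO in orange and black lines at the means of 3 libraries. The groups are apart for 8 genes and overlap for Krt10, and Krt7 is the gene with its BACH1-KO libraries on top.

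Krt42 and Krt17, neighbouring type I keratin genes, showed the widest separation. Krt42 is a type I keratin that is functional in mouse. It lies on chr11:100262882-100269871 (mm10, minus strand, 8 exons) and stood at 50.7, 48.1 and 48.3 FPKM in the WT libraries against 3.08, 3.29 and 4.15 FPKM in the BACH1-KO libraries. The WT libraries agreed to within a coefficient of variation of 2.91%, the BACH1-KO libraries all lay far below them, and the ratio of the means was 14.0. The log2 fold change of FPKM + 1 was -3.48. Krt17, a keratin of epithelial appendages that is induced in stressed epidermis, lies on chr11:100256217-100261029 on the same strand, with a gap of 1.9 kb between the genes. Krt17 stood at 30.8, 21.9 and 20.9 FPKM in WT and 2.67, 3.17 and 2.52 FPKM in BACH1-KO. The first WT column stood above the other 2, the groups did not overlap, and the means differed 8.82 times (log2 fold change -2.74).

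Krt17 and Krt42 are close in sequence, which bears on how fragments could be divided between them. Their coding sequences (1302 and 1359 bases, GENCODE M21 on GRCm38) were identical at 80.8% of aligned positions, with a longest shared run of 53 bases. The most alike stretch of 90 coding bases lies in exon 3 of both genes, at chr11:100259222-100259311 for Krt17 and chr11:100266984-100267073 for Krt42, both on the minus strand. It is shown because fragments from it could be assigned to either gene, and capitals mark the 3 bases that differ.
Krt17: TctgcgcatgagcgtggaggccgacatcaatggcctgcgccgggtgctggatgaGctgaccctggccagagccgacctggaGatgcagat
Krt42: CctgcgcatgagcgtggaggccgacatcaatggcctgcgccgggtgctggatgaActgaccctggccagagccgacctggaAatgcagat
Over aligned positions, Krt17 shares still more with Krt14 (84.7%, longest run 71 bases), a keratin of basal epidermis. As a share of the longer coding sequence, its identity was 75.6% with Krt14 and 77.0% with Krt42. Krt14 was at 0.148 ± 0.0609 FPKM in WT and 0.179 ± 0.135 FPKM in BACH1-KO (SD, n = 3 per group), so Krt14 was little represented in either genotype. Krt16, another close relative, ranged from 0.192 to 0.409 FPKM across WT libraries and from 0.176 to 0.219 FPKM across BACH1-KO libraries. How the authors' counting treated fragments that match several genes is not stated, so the split between Krt17 and Krt42 is uncertain. Both values, and so their sum, were lower in each BACH1-KO library than in any WT library. As a share of all keratin FPKM, Krt17 and Krt42 held 41.4% to 48.6% in WT and 12.2% to 13.6% in BACH1-KO.

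Krt19, the shortest of these keratins (403 codons), lacks most of the tail domain and is found in simple and ductal epithelia and in trophoblast. It lies on chr11:100140810-100148665 (minus strand), 107.6 kb from Krt17, and was at 38.9, 48.9 and 46.4 FPKM in WT. In BACH1-KO it was at 10.1, 11.03 and 11.4 FPKM. The lowest WT library was still more than 3 times above the highest BACH1-KO library, and the means differed 4.12 times (log2 fold change -1.94). Krt19 held 23.2% to 28.8% of keratin FPKM in WT and 21.6% to 23.1% in BACH1-KO, ranges that lie side by side without overlap. Krt10, the type I keratin of differentiated epidermis, was close to the filter with 1.58, 1.46 and 1.18 FPKM in WT and 1.23, 0.705 and 0.965 FPKM in BACH1-KO. Its groups overlapped through the first BACH1-KO column and the third WT column.

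Krt8 and Krt18, the simple-epithelial pair, were lower in BACH1-KO by smaller factors than Krt17, Krt19 and Krt42. Krt8, the type II partner, lies on chr15:101996698-102004482 (minus strand, 9 exons), and Krt18, the type I partner, on chr15:102028180-102032027 (plus strand, 7 exons), so the genes are transcribed away from each other across a gap of 23.7 kb. Krt8 was at 21.5, 22.5 and 27.5 FPKM in WT and at 9.56, 9.31 and 10.5 FPKM in BACH1-KO. The third WT column was the highest, the groups did not overlap, and the ratio of the means was 2.43 (log2 fold change -1.20). Krt18 was at 20.6, 23.1 and 17.5 FPKM in WT and at 11.6, 11.9 and 12.5 FPKM in BACH1-KO. Here the third WT column was the lowest, still above the highest BACH1-KO library, and the ratio of the means was 1.69 (log2 fold change -0.71). The ratio of Krt8 to Krt18 was 1.05, 0.977 and 1.57 in WT and 0.822, 0.781 and 0.839 in BACH1-KO. The BACH1-KO libraries held a narrower range of this ratio, below that of WT. With the larger differences of Krt17 and Krt42, the pair took up 25.1% to 27.1% of keratin FPKM in WT and 44.0% to 45.2% in BACH1-KO.

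Krt7, a type II keratin of simple and glandular epithelia and of trophoblast, was the member that was higher in BACH1-KO. It lies on chr15:101411043-101430313 (plus strand), 566.4 kb from Krt8, and was at 1.41, 0.862 and 1.47 FPKM in WT and at 2.55, 2.24 and 2.92 FPKM in BACH1-KO. All BACH1-KO libraries were above all WT libraries, as for 38.4% of all tested genes, and the ratio of BACH1-KO to WT means was 2.06 (log2 fold change 0.68). Its share of type II keratin FPKM was 3.63% to 5.99% in WT and 15.4% to 17.5% in BACH1-KO. The coding sequences of Krt7 and Krt8 were identical at 73.8% of aligned positions, with a longest shared run of 30 bases.

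Summed by type, the keratin transcripts were unequal, with more type I than type II in each library. Type I keratins (21 symbols) summed to 144, 146 and 137 FPKM in WT and to 31.8, 33.1 and 35.7 FPKM in BACH1-KO. Type II keratins (20 symbols) summed to 23.5, 23.8 and 29.3 FPKM in WT and to 15.1, 14.5 and 16.7 FPKM in BACH1-KO. The ratio of type I to type II was 6.13, 6.13 and 4.67 in WT and 2.11, 2.28 and 2.14 in BACH1-KO. The WT ratio was the higher in each library, and the third WT column was nearest to BACH1-KO. These are transcript ratios, and protein was not measured.

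**Figure D2:**
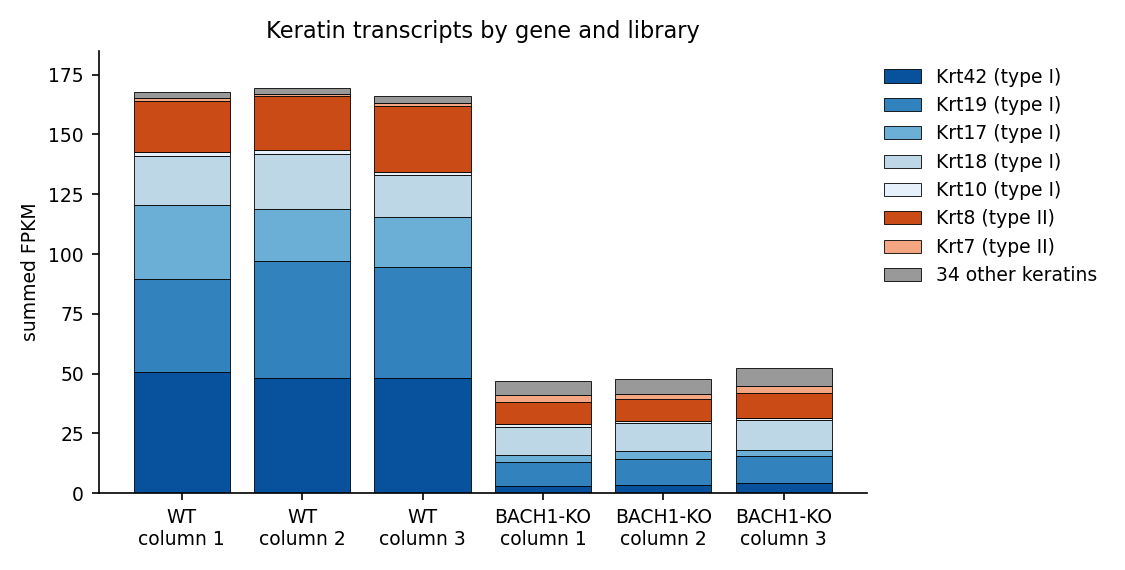
Summed FPKM of keratin transcripts in each library, stacked by gene, with type I members in blues, type II members in reds and 34 other keratins in grey. The WT stacks end between 166 and 169 FPKM, the BACH1-KO stacks between 46.9 and 52.4 FPKM, and the blue Krt42 and Krt17 segments are small in BACH1-KO.

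The other 34 keratins were near the floor of the table. None had a mean of at least 1 FPKM, so 0 of them were tested. Of these, 12 had all BACH1-KO libraries above all WT libraries, 2 had them below and 20 overlapped. Among 6297 other genes with a mean under 1 FPKM, 39.9% had the BACH1-KO libraries above and 7.05% had them below, and the BACH1-KO libraries listed more genes above 0 (17276 to 17455) than the WT libraries (16047 to 16159). Together they reached 2.21 to 2.88 FPKM (WT) and 6.02 to 7.37 FPKM (BACH1-KO), and 13 of them were listed at 0 in all WT libraries against 3 in all BACH1-KO libraries. For the same 6297 genes these shares were 22% and 5.51%. Krt79, a type II keratin of hair follicle and sebaceous epithelium, was the most abundant of them in BACH1-KO (named after its values were seen), at 1.69, 1.47 and 1.53 FPKM against 0.107, 0.0971 and 0.168 FPKM in WT. Krt13, a type I keratin of internal stratified epithelia, was at 0.448, 0.520 and 0.482 FPKM in WT and at 0.110, 0 and 0 FPKM in BACH1-KO (also named afterwards). Keratinocyte keratins Krt5, Krt14, Krt15 and Krt1 were all under 0.4 FPKM in every library.

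Vim was the most abundant of the 9 genes in both genotypes and held a slightly larger share of their total in BACH1-KO. It lies on chr2:13573927-13582826 (plus strand, 9 exons) and was at 176, 189 and 194 FPKM in WT and at 54.0, 54.2 and 56.4 FPKM in BACH1-KO. The BACH1-KO libraries were close together and all below WT, with a ratio of the means of 3.40 (log2 fold change -1.75). Vim made up 49.0% to 51.8% of the FPKM of the 9 genes in WT and 53.3% to 54.7% in BACH1-KO. In WT 95.2% of tested genes had a lower mean than Vim, and 84.7% in BACH1-KO.

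Lmna lies on chr3:88480147-88509956 (minus strand, with 12 exons in its longest coding transcript) and was at 17.9, 17.4 and 17.6 FPKM in WT. In BACH1-KO it was at 3.90, 5.60 and 4.45 FPKM. WT libraries varied by 1.48% and BACH1-KO libraries by 18.6% (coefficient of variation), the groups did not overlap, and the ratio of the means was 3.79 (log2 fold change -1.73). The table has a single value per gene, so lamin A and lamin C cannot be told apart. Lmnb1 and Lmnb2, the B-type lamins, were the more abundant in both groups. Lmnb1 fell from 113 ± 7.14 to 96.8 ± 3.64 FPKM (limma adjusted p = 0.00467, with a log2 fold change of -0.21). Lmnb2 fell from 41.6 ± 2.39 to 35.4 ± 1.86 FPKM (limma adjusted p = 0.00507, with a log2 fold change of -0.23). Lmna was accordingly 10.1% to 10.5% of the summed lamin FPKM in WT and 2.81% to 4.07% in BACH1-KO.

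The order of the 9 levels differed between the genotypes. In WT it ran Vim, Krt42, Krt19, Krt17, Krt8, Krt18, Lmna, Krt10 and Krt7. The library ranges of neighbours in that order overlapped except between Vim and Krt42, Krt19 and Krt17, and Lmna and Krt10. In BACH1-KO it ran Vim, Krt18, Krt19, Krt8, Lmna, Krt42, Krt17, Krt7 and Krt10. There the ranges overlapped between Krt19 and Krt8, between Lmna and Krt42, between Krt42 and Krt17, and between Krt17 and Krt7, while the other neighbours were apart. Krt42 thus stood second in WT and sixth in BACH1-KO.

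The profile over the 6 libraries most like the mean of Krt8 and Krt18 belonged to Phip, Pikfyve, Slc5a3, Mycbp2, Pde9a and Polr2b, by the root mean square distance of mean-centred log2(FPKM + 1), which was 0.0225 to 0.0303. Pearson's r with that mean was 0.998 to 0.999 over 6 libraries, which share the 2 genotype groups, so likeness here is mostly a like difference between the groups. As levels, Polr2b was at 106 ± 2.69 FPKM in WT and 54.9 ± 0.810 FPKM in BACH1-KO, and Phip at 8.70 ± 0.498 and 4.03 ± 0.243 FPKM. Krt8 and Krt18 themselves were each at a distance of 0.160 from their mean.

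Promoter sequences were taken from RefSeq (GRCm38.p6; 250 bases before to 50 after the start), where 7 of the 9 members matched, with 2 windows for Lmna. Krt17 and Krt19 had no entry. Upstream stretches outside annotated exons are shown for Krt8 (chr15:102004483-102004592, minus strand), Krt18 (chr15:102028030-102028179, plus strand) and Krt42 (chr11:100269952-100270101, minus strand), the pair with the smallest and the gene with the largest difference among the 7 lower members. Capitals mark matches to any motif searched.
Krt8: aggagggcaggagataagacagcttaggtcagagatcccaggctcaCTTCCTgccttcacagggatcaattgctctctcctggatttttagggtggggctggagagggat
Krt18: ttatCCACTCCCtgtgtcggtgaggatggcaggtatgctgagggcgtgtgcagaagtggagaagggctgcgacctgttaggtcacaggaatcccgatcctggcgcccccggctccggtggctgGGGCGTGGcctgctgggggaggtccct
Krt42: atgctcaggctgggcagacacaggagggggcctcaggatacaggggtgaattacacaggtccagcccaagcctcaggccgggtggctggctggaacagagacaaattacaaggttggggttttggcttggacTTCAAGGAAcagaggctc
On both strands of the whole windows, 8 motifs were searched. Positions count from the RefSeq start, which is not always the end of the GENCODE span given above. It lies inside that span for Krt7, Krt8, Krt18, Vim and Lmna. For Krt42 it lies outside, so all Krt42 matches are upstream of its GENCODE span. The STAT motif TTCNNNGAA was in the Krt42 window, starting at position -18 from the start, and in no other member's, and it was in 7.06% of 13611 promoters of genes in the table. The KLF motif GGGNGTGG was in the windows of Krt18, at positions -182 and -63, and of Vim and Lmna, and in 22.6% of promoters. The ETS motif AGGAAG was in those of Vim, Krt7 and Krt8 (33.7% of promoters). The AP-1 motif TGANTCA was in that of Lmna, 39 bases after the start (5.89% of promoters). The longer recognition element of BACH1 and MAF heterodimers, which contains the AP-1 motif, was in 0 of the 7 members' windows and in 0.316% of promoters. TATAAA was in the windows of Vim, at position -32, and Krt10, at position -26, and in 8.95% of promoters. It was also in those of Krt42, 19 bases after the start, and Krt8, at positions -3 and -1 on opposite, overlapping strands. GGGCGG was in those of Lmna and Krt7 (56.7% of promoters), and CCAAT in those of Vim, Lmna, Krt10 and Krt42 (38.7% of promoters). A match is a description of letters and not a binding site.

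Transcription factors linked in earlier work to keratin or vimentin genes moved both ways: of 35 on the list 23 were tested, 9 rose, 9 fell and 5 did not pass. The median log2 fold change was 0.01, against -0.01 for all tested genes, of which 37.3% were called higher and 39.7% lower. Klf4 fell from 41.7 ± 2.03 to 7.39 ± 0.607 FPKM (limma log2 fold change -2.35, adjusted p = 4.49e-08), Stat3 from 23.2 ± 1.23 to 8.02 ± 0.346 FPKM and Klf5, a regulator of trophectoderm and stem cell renewal, from 71.3 ± 6.55 to 36.1 ± 0.342 FPKM. Jun, an AP-1 subunit, rose from 1.24 ± 0.0471 to 7.31 ± 0.362 FPKM (limma log2 fold change 1.89, adjusted p = 1.21e-07). Jund, another AP-1 subunit, rose from 31.5 ± 1.70 to 77.0 ± 3.07 FPKM, and Tfap2c, a trophoblast and germ cell factor, from 12.6 ± 1.17 to 29.6 ± 0.6996 FPKM. Whether any of them acts on the 9 genes was not tested.

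Other intermediate filament genes moved both ways, and each called fall was smaller than the difference of Vim. Of 16 genes 11 were tested, 3 rose, 7 fell and 1 did not pass, with a median log2 fold change of -0.23. Among all tested genes 37.3% rose and 39.7% fell. Prph, which encodes peripherin of neurons, fell from 15.4 ± 1.02 to 6.81 ± 0.115 FPKM (limma log2 fold change -1.06, adjusted p = 1.00e-06). Nes, the nestin gene of neural progenitors, whose protein assembles with vimentin, fell from 2.00 ± 0.168 to 0.872 ± 0.0375 FPKM. Since Nes passed the filter only through its WT level, only a fall could be called for it. Iffo2 fell from 3.52 ± 0.171 to 2.06 ± 0.188 FPKM. Ina, encoding α-internexin of neurons, rose from 6.06 ± 1.14 to 18.1 ± 0.218 FPKM (limma log2 fold change 1.45, adjusted p = 4.95e-06). Iffo1 rose from 1.24 ± 0.134 to 3.90 ± 0.733 FPKM, and Synm, which encodes synemin, from 1.46 ± 0.0642 to 2.14 ± 0.111 FPKM.

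**Figure D3:**
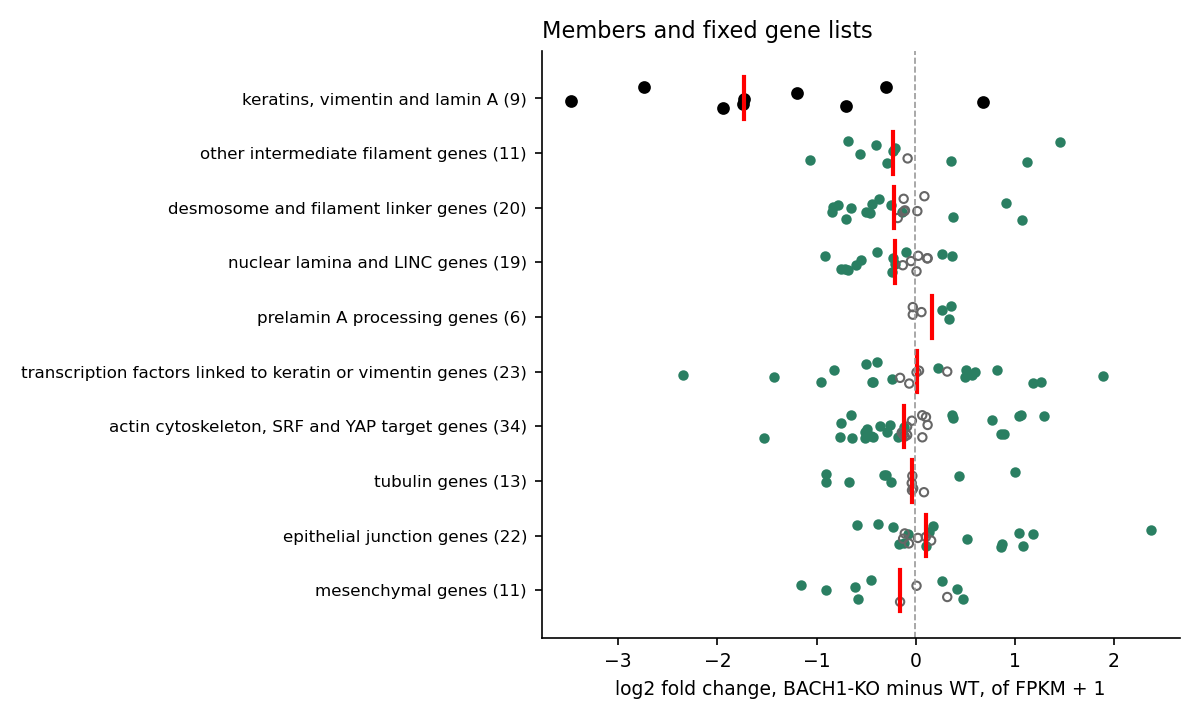
Log2 fold changes, BACH1-KO minus WT, of FPKM + 1 for the 9 members (black, not tested) and the tested genes of 9 lists, with filled green points past the limma threshold, open points not past it and red bars at list medians. The list medians lie between -0.23 and 0.16, and the dashed line is the median of all tested genes at -0.01.

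Genes that anchor filaments at desmosomes and hemidesmosomes, or link them to other structures, had 3 of 20 tested members higher, 11 lower and 6 not past, with a median log2 fold change of -0.22. Over all tested genes 37.3% were called higher and 39.7% lower. Plec, the cytolinker plectin that binds keratins and vimentin, fell from 4.68 ± 0.188 to 2.16 ± 0.0804 FPKM (limma log2 fold change -0.85, adjusted p = 6.44e-06). Macf1, which joins actin to microtubules, fell from 10.9 ± 0.0896 to 5.91 ± 0.0290 FPKM, and Fbf1, a keratin-binding centriole protein, from 6.81 ± 0.646 to 3.38 ± 0.262 FPKM. Jup, plakoglobin of desmosomes, fell from 22.9 ± 0.822 to 17.5 ± 0.535 FPKM. Dsp, desmoplakin, the link between desmosomes and keratins, was at 1.74 ± 0.0663 and 1.92 ± 0.183 FPKM and did not pass (limma adjusted p = 0.332). Dsc2, a desmosomal cadherin, rose from 0.290 ± 0.0635 to 1.72 ± 0.154 FPKM and Tchp, the keratin-binding protein trichoplein, from 3.89 ± 0.570 to 8.13 ± 0.430 FPKM. Dsc2 passed the filter only through its BACH1-KO level, so only a rise could be called for it. Krtcap2, a subunit of oligosaccharyltransferase despite its name, rose from 169 ± 9.15 to 219 ± 12.2 FPKM.

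Around Lmna, the list of nuclear lamina genes and of LINC genes, which tie the lamina to the cytoskeleton, had 2 of 19 tested members higher, 11 lower and 6 not past (median log2 fold change -0.21). The shares over all tested genes were 37.3% higher and 39.7% lower. Sun1, an inner nuclear membrane protein that binds lamin A, fell from 76.2 ± 4.73 to 40.0 ± 1.31 FPKM (limma log2 fold change -0.91, adjusted p = 1.16e-06). Lbr, the lamin B receptor, fell from 93.9 ± 2.40 to 61.7 ± 2.38 FPKM, and Nrm, nurim of the nuclear envelope, from 56.1 ± 3.12 to 33.9 ± 1.72 FPKM. Syne4, a nesprin, fell from 14.9 ± 2.14 to 8.41 ± 0.965 FPKM. Emd, emerin, was at 48.6 ± 3.37 and 52.7 ± 1.88 FPKM and did not pass (limma adjusted p = 0.0832). Without the second WT column, the limma log2 fold change of Emd was 0.16 (adjusted p = 0.0251). Tor1a, torsin A, rose from 27.6 ± 2.33 to 35.9 ± 0.370 FPKM, and Lemd3 from 6.05 ± 0.492 to 7.46 ± 0.113 FPKM. Of 6 genes that process prelamin A, 3 rose, 0 fell and 3 did not pass: Zmpste24, the protease that matures lamin A, rose from 16.2 ± 0.932 to 20.96 ± 0.452 FPKM (limma log2 fold change 0.36, adjusted p = 2.61e-04), Fntb, a farnesyltransferase subunit, from 23.8 ± 0.792 to 30.4 ± 1.91 FPKM and Rce1 from 18.3 ± 1.95 to 22.1 ± 0.949 FPKM. Icmt, Fnta and Narf, which did not pass, had log2 fold changes of -0.03, -0.03 and 0.06. Of all tested genes 37.3% were called higher, so no shared movement of the 6 genes is read from this count.

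The other cytoskeletal systems and the junction genes had median log2 fold changes from -0.12 to 0.10, against -0.01 for all tested genes. Their summed FPKM differed without overlap. The actin list summed to 4554 to 4687 (WT) and 3554 to 3630 (BACH1-KO). Tubulin genes summed to 3762 to 3943 (WT) and 2600 to 2706 (BACH1-KO). Junction genes went the other way, from 1057 to 1095 (WT) and from 1115 to 1125 (BACH1-KO). Of 34 tested actin, SRF and YAP target genes 8 rose, 16 fell and 10 did not pass (median log2 fold change -0.12). Here too, 37.3% of all tested genes were called higher and 39.7% lower. Actn1 fell from 42.2 ± 1.26 to 24.4 ± 0.824 FPKM and Cfl1, cofilin, from 1125 ± 40.0 to 666 ± 1.49 FPKM. Amotl2 and Ctgf, YAP targets, rose from 3.97 ± 0.259 to 11.2 ± 0.396 FPKM and from 3.73 ± 0.678 to 8.68 ± 0.241 FPKM, and Zyx, zyxin of focal adhesions, from 3.82 ± 0.341 to 9.10 ± 0.723 FPKM. Actb was at 270.3 ± 15.8 and 290.1 ± 5.11 FPKM (limma adjusted p = 0.0578). Without the first WT column, the limma log2 fold change of Actb was 0.15 (adjusted p = 0.00191). Of 13 tested tubulin genes 2 rose, 6 fell and 5 did not pass (median -0.04): Tubb5 fell from 1396 ± 41.9 to 747 ± 11.1 FPKM, Tubb2b from 269.6 ± 17.9 to 143 ± 0.859 FPKM, and the neuronal Tubb3 rose from 32.1 ± 1.06 to 65.2 ± 0.970 FPKM.

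Epithelial junction genes moved both ways. Of 22 tested, 10 rose, 6 fell and 6 did not pass (median log2 fold change 0.10), where 37.3% of all tested genes rose and 39.7% fell. Cdh1, E-cadherin, was at 97.5 ± 2.17 and 92.3 ± 0.786 FPKM, a small fall by limma (log2 fold change -0.08, adjusted p = 0.0416). The limma log2 fold change of Cdh1 lost its call without any library other than the third WT column (adjusted p from 0.0708 to 0.117). Epcam fell from 132 ± 0.577 to 121 ± 1.596 FPKM and Ctnna1, α-catenin, from 203 ± 4.75 to 134 ± 0.643 FPKM. Esrp1, a splicing regulator of epithelia, rose from 5.57 ± 0.316 to 13.9 ± 0.614 FPKM, and Rab25, a GTPase of epithelial recycling, from 2.90 ± 0.925 to 18.7 ± 0.522 FPKM. Of 11 tested mesenchymal genes 3 rose, 5 fell and 3 did not pass (median -0.16). Tgfb1 fell from 10.1 ± 0.731 to 3.98 ± 0.679 FPKM and Sparc from 92.5 ± 3.46 to 48.9 ± 1.32 FPKM, while the fibronectin gene Fn1 rose from 48.7 ± 0.888 to 58.8 ± 1.62 FPKM and the galectin gene Lgals1 from 122 ± 5.15 to 169.9 ± 4.90 FPKM.

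Markers of cells that could bring these filaments with them moved as follows, and their part in the differences of the 9 genes was not tested. For each list below, the shares called over all tested genes were 37.3% higher and 39.7% lower. Of 17 fibroblast feeder markers with a value, 4 were tested, with 1 higher and 3 lower. Their sum ranged from 28.9 to 29.4 FPKM (WT) and from 17.9 to 18.6 FPKM (BACH1-KO), with Col1a1, Col1a2, Col3a1, Dcn and Lum all under 1 FPKM on average in both groups. Of this sum, Thy1 held 18.8 ± 0.550 FPKM in WT and 10.2 ± 0.190 FPKM in BACH1-KO. Over these 17 markers, 9 had all BACH1-KO libraries above all WT libraries and 4 had them below. Such shares were 38.4% and 40.9% over all tested genes, and 39.9% and 7.05% over non-keratin genes averaging under 1 FPKM. Of 15 trophoblast markers 7 were tested, with 2 higher, 4 lower and 1 not past, and their sum ranged from 20.4 to 22.7 FPKM (WT) and from 29.4 to 33.2 FPKM (BACH1-KO). Rhox6 and Rhox9, homeobox genes of placenta and germ cells, were the 2 that rose, and without them the sum ranged from 18.4 to 20.9 FPKM (WT) and from 11.1 to 14.0 FPKM (BACH1-KO). Cdx2 and Gata3, which define trophectoderm, were under 0.1 FPKM on average in both. Of 18 primitive and parietal endoderm markers 10 were tested, with 1 higher, 6 lower and 3 not past, and their sum ranged from 169 to 176 FPKM (WT) and from 93.4 to 94.8 FPKM (BACH1-KO). Within it, Lama1 fell from 4.68 ± 0.0537 to 0.789 ± 0.0936 FPKM and Col4a1 from 10.4 ± 1.07 to 2.80 ± 0.0567 FPKM, while the defining factors Gata6 and Sox17 were under 1 FPKM in both. Of 11 surface ectoderm and keratinocyte markers 4 were tested, with 0 higher, 3 lower and 1 not past, and their sum ranged from 57.7 to 62.6 FPKM (WT) and from 39.3 to 40.0 FPKM (BACH1-KO). All 21 hepatocyte markers rose, against 37.3% of all tested genes, and their sum ranged from 11.4 to 18.2 FPKM (WT) and from 1016 to 1052 FPKM (BACH1-KO). Some of them, such as Alb, Apoa1 and Ahsg, averaged under 1 FPKM in WT and passed the filter only through BACH1-KO. This list, like the others, was chosen with earlier results of these data known, so nothing is read from the count. Of the 10 stem cell markers 9 fell, with a median log2 fold change of -0.59 over the 10. Their sum ranged from 10760.9 to 11532.5 FPKM (WT) and from 6923.7 to 7177.1 FPKM (BACH1-KO). The largest fall was that of Tdgf1, from 1130 ± 72.0 to 242 ± 6.82 FPKM. Nanog passed as higher (log2 fold change 0.07, limma adjusted p = 0.0419). The limma log2 fold change of Nanog lost its call with median-of-ratios scaling (adjusted p = 0.376), with a constant prior variance and without any of the 6 libraries. No marker with a value was at 0 in all 6 libraries. Some listed markers had no value: 15 of 19 trophoblast, 17 of 18 fibroblast feeder and 11 of 13 surface ectoderm markers had one. Whether the rest were undetected is not known.

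The chromosomal neighbours of Krt42, Krt8, Lmna and Vim moved both ways, counted over protein-coding genes whose start lay within 500 kb, with the other members left out (a window chosen after the values were seen). Members that fall in these windows were themselves lower: Krt17 and Krt19 lie beside Krt42, and Krt18 beside Krt8, with the gaps and levels given above. Krt42 had 15 tested neighbours that are no members, of which 4 rose, 9 fell and 2 did not pass, with log2 fold changes from -1.05 to 0.75 against -3.48 for Krt42. Among them Eif1, a translation initiation factor and the nearest of these, upstream, rose from 595 ± 23.1 to 1004 ± 15.7 FPKM. Krt8 had 16 such neighbours, with 4 higher, 8 lower and 4 not past. The nearest of these, Eif4b, another initiation factor, fell from 261 ± 2.95 to 139 ± 3.19 FPKM, a log2 fold change of -0.90 beside -1.20 for Krt8. Lmna had 24, with 8 higher, 12 lower and 4 not past, and the largest rise among them was that of Rab25, 38.3 kb upstream. Vim had 3, with 2 higher and 1 lower, and Trdmt1, 29.3 kb upstream, rose from 5.79 ± 0.187 to 9.07 ± 0.257 FPKM. Neighbours of Krt10 and Krt7 were mostly lower. Krt10 had 5, with 0 higher, 4 lower and 1 not past, and Krt7, itself higher, had 6, with 1 higher and 5 lower. Over all tested genes 37.3% were called higher and 39.7% lower.

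**Figure D4:**
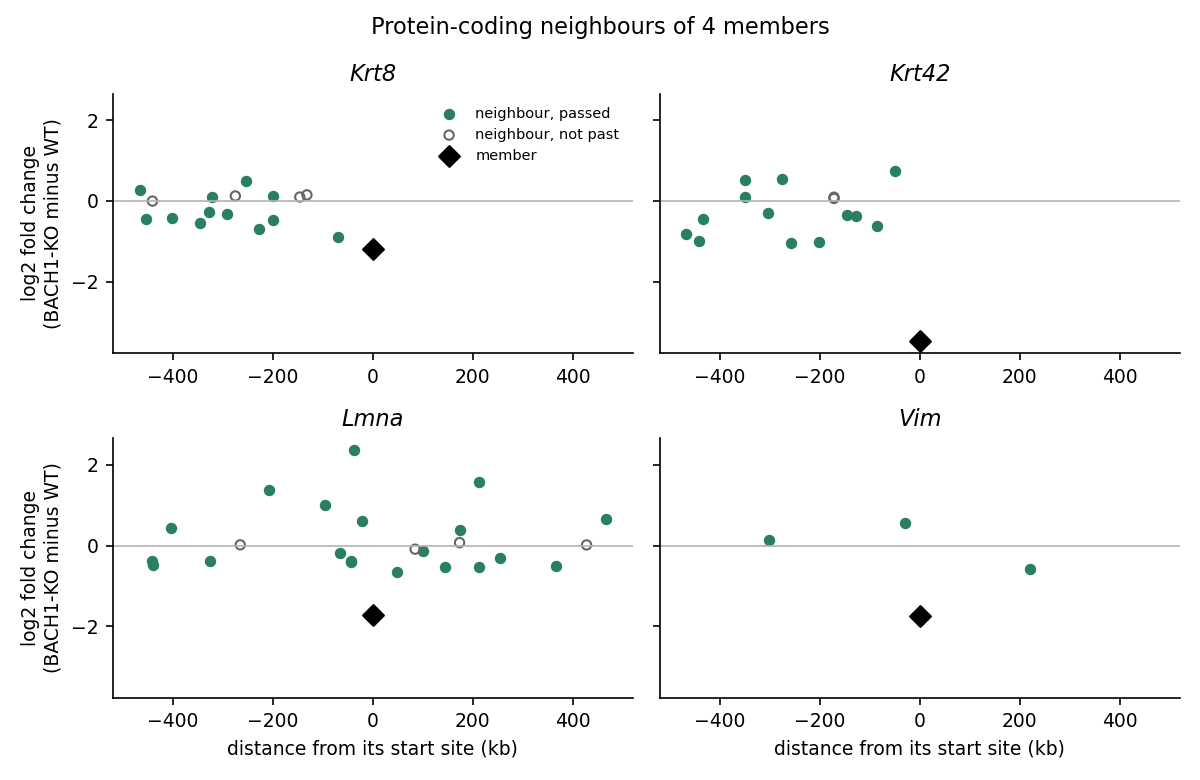
Log2 fold change (BACH1-KO minus WT, of FPKM + 1) of tested protein-coding genes against the distance in kb of their start from that of Krt8, Krt42, Lmna or Vim, with negative distances upstream. Black diamonds are the members, green points are neighbours past the limma threshold and open points are neighbours not past it. The other members are left out, and in each panel the member lies below all neighbours drawn. Of the members without a panel, Krt17 and Krt19 also lie below all their tested neighbours. Krt18 (-0.71) lies above its neighbour Eif4b (-0.90), Krt10 above some of its neighbours and Krt7 above all of its own. The members were chosen on the contrast of the genotypes, so nothing is read from these positions.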

How the data were processed

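RNA from 3 WT and 3 BACH1-KO E14Tg2A samples was extracted with Trizol and made into Illumina TruSeq libraries, per the labels' protocols. The deposited table holds FPKM per gene symbol, made by the authors with Cufflinks on mm10, per the submitters' processing notes. Neither the versions nor the aligner or annotation are given in the sources used here. FPKM is a share of the library, so values depend on all other transcripts in the library. Columns name the genotype but could not be tied to single titles, so each was a replicate of its group with no pairing. Another 23 rows with a number for a symbol (0.0987% of summed FPKM) were left out.

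Genes averaging 1 FPKM or more over the libraries were tested as log2(FPKM + 1) with limma 3.58.1 (R 4.3.3; lmFit, eBayes with a trend, two-sided, Benjamini-Hochberg over all tested genes), a step tested on simulated data. SDs are over 3 libraries. Log2 fold changes are the mean in BACH1-KO less that in WT, and this scale understates changes of low genes. The members and gene lists were chosen with earlier results of these data known. Named genes are the members, 16 genes set by name, up to 3 higher and 3 lower per list by size of change, and the 6 nearest profiles; a few further members of the lists and neighbours were named after their values were seen. Positions and coding sequences are from GENCODE M21 (GRCm38, the same build as mm10), aligned with Biopython 1.88. Alternatives were a pseudocount of 0.1, no filter, a filter at 5 FPKM, median-of-ratios scaling, a constant prior variance and leaving out each library. Some items of the gene lists and sequence comparisons are not reported here.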

Additional observations from a re-analysis of the deposited data

How the results depend on the processing

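The 9 members kept their direction under every alternative run for them (pseudocount, scaling and each library left out). Without single libraries, 7 to 8 members were lower in every BACH1-KO library, Krt10 being the eighth without the third WT or the first BACH1-KO column. The pseudocount of 0.1 moved the log2 fold changes of Krt7 (1.01), Krt17 (-3.08) and Krt42 (-3.78) by more than 1 SD (from the summed variances of both groups), and those of Krt8 (-1.27 from -1.20), Krt10 (-0.52 from -0.30) and Lmna (-1.92 from -1.73) beyond their range with a library left out. The type I to type II ratio ranged from 5.40 to 6.13 in WT and from 2.12 to 2.21 in BACH1-KO with a library left out. List counts moved with the filter, because other genes were tested. With no filter, 14 other keratins, 13 mesenchymal genes, 10 trophoblast, 11 endoderm, 11 fibroblast feeder and 6 surface ectoderm markers were called, against 0, 8, 6, 7, 4 and 3. At 5 FPKM, 6 other intermediate filament genes were called in place of 10, with 1 trophoblast, 3 endoderm and 1 fibroblast feeder marker. Of all tested genes, higher ones then numbered 2942, against 4542, since fewer were tested. Of 81 tested named genes, 5 changed their call under an alternative: Actb, Emd, Cdh1, Nanog and Tubb4a. No paired analysis was possible because the columns could not be tied to titles; some number endings of the titles occur in both genotypes, and a batch they may mark was not tested. Unknown depth leaves the precision of members near 1 FPKM, Krt7 and Krt10, to the spread between libraries.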
